A study of Mus musculus with 2 samples.

Results

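Interferon-stimulated genes are the genes that a cell turns on when interferons bind its surface. The genes examined here were chosen by symbol from a list of 39 such genes. Of these, 38 were found among the 32285 genes of the count tables, and *Mx2* was not analysed here. They were followed in liver nuclei of male mice of strain C57BL6/J kept on a diet made to cause metabolic dysfunction-associated steatohepatitis (MASH). The questions were whether any difference between the libraries was shared by all cell types, and how unevenly the genes were spread over hepatocyte nuclei.

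There were 2 libraries, 1 per genotype. The library labelled Flox came from *Themis* flox/flox mice and the library labelled HKO from *Themis* Alb-Cre mice, in which the albumin promoter drives Cre in hepatocytes. Feeding began at the age of 10 to 12 weeks and lasted 5 months, and the feed drew 40% of its energy from fat and 20% from fructose and held 2% cholesterol. Each library pooled the snap-frozen livers of several mice, so animals could not be told apart, and the nuclei were sorted by flow cytometry before 3′ RNA-seq on the 10x platform. The title of the library labelled Flox says WT, and its group was taken from its genotype field. With 1 library per genotype no test was possible. A value is therefore given for each library, and its 95% interval covers counting error only. Unique molecular identifiers (UMIs, tags that count captured RNA molecules) are not independent where a few nuclei hold many of them, so the intervals are too narrow for such genes.

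Type I and type III interferons act through JAK kinases on a complex that holds STAT2 and IRF9 and binds the interferon-stimulated response element (ISRE) in front of many antiviral genes. Type II interferon, IFNγ, acts through gamma-activated sites (GAS) and drives *Irf1* and many GTPase genes. The products sense foreign nucleic acids, block translation of viral RNA, attack vacuoles that hold pathogens and feed back on the pathway. In liver, hepatocytes and non-parenchymal cells both respond to these signals, and macrophages also respond to nucleic acids of dying cells.

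The stretches in front of several of these genes are shown because they hold the ISRE-type letters, both in genes whose RNA was gathered in few hepatocyte nuclei and in genes whose RNA was spread widely. Each is read 5′ to 3′ on the gene's own strand from the RefSeq promoter entries of GRCm38.p6. Capitals mark matches to GAAANNGAAA or its reverse complement TTTCNNTTTC, and overlapping matches run together.
*Rsad2*, chr12:26456543-26456592, minus strand: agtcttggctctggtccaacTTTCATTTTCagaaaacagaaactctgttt
*Ifit1*, chr19:34640765-34640833, plus strand: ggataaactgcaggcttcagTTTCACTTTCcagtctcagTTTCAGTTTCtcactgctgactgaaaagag
*Ifit3*, chr19:34583353-34583436, plus strand: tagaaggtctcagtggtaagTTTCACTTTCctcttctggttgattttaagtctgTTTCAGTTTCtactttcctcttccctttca
*Ifit3b*, chr19:34607749-34607832, plus strand: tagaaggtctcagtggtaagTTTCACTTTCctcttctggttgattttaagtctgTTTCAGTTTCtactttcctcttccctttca
*Isg15*, chr4:156200855-156200916, minus strand: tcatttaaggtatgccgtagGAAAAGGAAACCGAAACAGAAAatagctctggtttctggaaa
*Gbp7*, chr3:142530263-142530312, plus strand: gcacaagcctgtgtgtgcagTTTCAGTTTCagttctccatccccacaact
*Igtp*, chr11:58199502-58199551, plus strand: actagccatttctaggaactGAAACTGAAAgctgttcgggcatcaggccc
*Bst2*, chr8:71537567-71537622, minus strand: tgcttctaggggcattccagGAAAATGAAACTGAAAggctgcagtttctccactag
*Stat2*, chr10:128270256-128270305, plus strand: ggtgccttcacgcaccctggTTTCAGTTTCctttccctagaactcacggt

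The match nearest the start lay 120 bases before it in *Rsad2*, 85 in *Ifit1*, 122 in *Ifit3*, 66 in *Isg15* and 34 in *Igtp*. The windows of *Ifit3* and its neighbour *Ifit3b* had the same 84 of 84 bases. The ISRE-type letters were present in 19 of the 30 members with a promoter entry, against 3.99% of all 27025 genes (3.44% of 32851 entries, each 300 bases long). GAS-type letters, TTCNNNGAA on both strands, were present in 8 of the 30, among them *Gbp7*, *Igtp*, *Bst2* and *Irf1*, against 9.55% of all genes. A match is a run of letters and not a shown binding site, and it was found both in genes gathered in few nuclei and in genes spread over many. *Cmpk2*, which lies beside *Rsad2* and was gathered in the same few nuclei, had no match in its window.

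Many members sit beside each other. Of the 38 genes, which lie on 14 chromosomes, 21 fell into 8 groups in which neighbours lay within 1 Mb. *Ifit2*, *Ifit3*, *Ifit3b* and *Ifit1* span 99.3 kb at chr19:34550694-34650009, and *Rsad2* and *Cmpk2* span 37.1 kb at chr12:26442746-26479837 on opposite strands. *Ifitm3* and *Irf7* span 257 kb at chr7:141009586-141266481, and *Gbp7*, *Gbp3* and *Gbp2* share chr3:142530342-142638008. Some members share sequence at their 3′ ends with a near copy, so that reads may be lost or split between them. This holds for *Gbp10* and *Gbp6*, *Tgtp1* and *Tgtp2*, *Oas1a* and *Oas1g*, *Ifit3* and *Ifit3b*, *Trim30a* and *Trim30d*, and for *Ifitm3*, and the counts of these members are uncertain to that extent.

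The matrices held 9363 barcodes with 58171337 UMIs for Flox and 10748 barcodes with 40475938 UMIs for HKO, and 27 barcode sequences occurred in both. After filtering, 8192 and 8940 nuclei were given to 7 types by marker UMIs. Hepatocyte nuclei numbered 5919 and 4635, endothelial nuclei 689 and 1151, nuclei of hepatic stellate cells (HSC) 774 and 1118, and macrophage nuclei 536 and 1385. Cholangiocyte nuclei numbered 103 and 416, T cell nuclei 108 and 166, and B cell nuclei 63 and 69. In endothelial, HSC and macrophage nuclei the summed hepatocyte markers stood between 9.57% and 16.7% of their level in hepatocytes, so hepatocyte RNA was carried into other nuclei. Hepatocyte nuclei held macrophage, endothelial and HSC markers at 0.161% to 0.424% of the level in those types. Levels are given as CPM, the counts of a gene per 1000000 UMIs of a type, which cannot tell fewer responding nuclei from less RNA per nucleus, and which are compared between types and libraries but not between genes.

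*Themis*, the gene to be deleted in hepatocytes, did not follow the label. In hepatocyte nuclei it stood at 162 CPM in the library labelled Flox (7519 UMIs) and at 246 CPM in the library labelled HKO (6823 UMIs), a ratio of 1.52 with a 95% interval of 1.47 to 1.57. T cell nuclei, which normally express it, held 320 and 435 CPM from 40 and 59 UMIs. Levels were 1.03 and 7.52 CPM in endothelial nuclei, 0.683 and 4.16 in HSC nuclei, and 1.63 and 6.31 in macrophage nuclei. Cholangiocyte nuclei held 0 and 3.14 CPM, and B cell nuclei 0 and 19.0 CPM from a total of 1 UMI. Which stretch of *Themis* Cre removes is not given in the sources used here, and a 3′ read outside that stretch would not show the deletion. Directions below are therefore between libraries as labelled, and the genotype behind them was not checked by this gene.

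Interferon-stimulated genes had a lower summed level in hepatocyte nuclei than in macrophage, HSC, endothelial and T cell nuclei, and a level near that of cholangiocyte and B cell nuclei. The 38 genes summed to 1357 CPM in hepatocyte nuclei of the Flox-labelled library and 1318 CPM in those labelled HKO. Macrophage nuclei held 5342 and 4588 CPM, HSC nuclei 4075 and 3758 CPM, and endothelial nuclei 3618 and 3371 CPM. T cell nuclei held 2552 and 3145 CPM, B cell nuclei 1472 and 1600 CPM, and cholangiocyte nuclei 1168 and 1311 CPM. Among hepatocyte, endothelial, HSC and macrophage nuclei, the 4 types with most UMIs, 16 members were highest in macrophages in both libraries, 12 in HSC, 3 in endothelial nuclei (*Irgm1*, *Bst2* and *Ifi44*) and 1, *Gbp10*, in hepatocytes. The leading type of the other 6 differed between the libraries.

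Several members were far higher in some types than in others. *Oas2*, an oligoadenylate synthetase that makes the signal for RNA decay, stood at 411 and 319 CPM in macrophage nuclei, 106 and 125 CPM in HSC nuclei and 10.3 and 9.19 CPM in endothelial nuclei. In hepatocyte nuclei it stood at 0.797 and 1.12 CPM, which is 0.194% and 0.350% of the macrophage level and no more than the macrophage markers themselves reached there. *Oas3*, a second synthetase, showed the same order, with 42.4 and 33.5 CPM in macrophages and 6 and 2 UMIs in all hepatocyte nuclei. *Ifit3*, which binds its IFIT partners in a complex that holds viral RNA, was highest in HSC at 132 and 67.1 CPM, against 56.6 and 27.6 CPM in endothelial and 60.3 and 43.7 CPM in macrophage nuclei. *Bst2*, the tetherin that holds budding virus at the membrane, stood at 248 and 304 CPM in endothelial nuclei against 56.7 and 55.8 CPM in hepatocytes. *Gbp10*, a guanylate-binding GTPase, stood at 10.6 and 7.05 CPM in hepatocyte nuclei, 2.06 and 0 CPM in endothelial nuclei and 2.73 and 2.38 CPM in HSC nuclei, and macrophage nuclei had 0 UMIs in both libraries.

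The hepatocyte counts of members came largely from a few genes, named here by their share of the counts and not as a comparison of transcript levels. *Stat2*, a signal transducer of the type I response, stood at 311 and 273 CPM, and *Iigp1*, an immunity-related GTPase that loads onto pathogen vacuoles, at 226 and 256 CPM. *Irf9*, the DNA-binding part of the type I complex, stood at 94.3 and 69.0 CPM, *Rnf213*, a large ubiquitin ligase, at 88.1 and 82.2 CPM, and *Parp14*, an ADP-ribosyltransferase, at 68.9 and 69.8 CPM. Few counts came from *Oas1a*, *Oas2*, *Oas3*, *Gbp2*, *Tgtp1*, *Ifit2* and *Ifit3b*, each under 2 CPM in the hepatocyte nuclei of the library labelled Flox.

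The libraries did not differ in 1 direction over the cell types. In hepatocyte nuclei 37 members, all but *Oas3*, had at least 20 UMIs over both libraries. Of these, 7 were at least 1.5 times higher in the library labelled HKO (*Ifit2*, *Rsad2*, *Cmpk2*, *Gbp7*, *Ifit3*, *Usp18* and *Gbp2*; 18.9% of them), beside 12.9% of all 14910 genes with as many UMIs. Another 4 were at least 1.5 times lower (*Ifitm3*, *Irf7*, *Gbp10* and *Oas1a*; 10.8%), again beside 12.9% of all genes. The intervals of *Gbp2* (33 and 31 UMIs) and *Oas1a* (24 and 7 UMIs) held 1. The median log2 ratio of HKO to Flox was 0.03 over the members and -0.01 over all genes.

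The median ratio was below that of all genes in HSC, macrophage and endothelial nuclei. With nuclei typed by marker UMIs, the share of members past 1.5-fold lower exceeded that of all genes in HSC only. Typing by clusters gave more lower members in endothelial and macrophage nuclei, with no share of all genes to set beside them. Of 34 members with enough UMIs in HSC nuclei, 11 were at least 1.5 times lower (32.4%), beside 14.8% of 10275 genes, and 0 were as much higher, beside 8.5%. The 11 were *Ifit1*, *Ifit3*, *Ifit3b*, *Isg15*, *Oas1a*, *Gbp2*, *Irgm1*, *Ifi47*, *Dhx58*, *Irf7* and *Ifitm3*. In macrophage nuclei 5 of 36 members were at least 1.5 times lower (*Oas1a*, *Ifitm3*, *Irf7*, *Isg15* and *Ifit1*; 13.9%), beside 14.9% of 10193 genes, and 0 were higher, beside 7.6%. Endothelial nuclei had 3 of 31 members lower (*Ifit3*, *Dhx58* and *Irf7*), beside 12.3% of 9357 genes, and 1 higher (*Usp18*), beside 9.12%. The intervals of *Isg15* and *Ifit1* in macrophage nuclei and of *Dhx58* in endothelial nuclei held 1. The median log2 ratio was -0.18 in HSC, -0.19 in macrophage and -0.18 in endothelial nuclei, against -0.05, -0.09 and -0.05 over all genes there.

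The less deeply counted types went the other way at the median, from few UMIs. In cholangiocyte nuclei 16 members had enough UMIs, and the median log2 ratio was 0.30 against -0.00 over all genes. Of these, 4 were higher (*Oasl2*, *Gbp6*, *Trim30a* and *Xaf1*) and 1 lower (*Ifitm3*), beside 16.7% of 6581 genes in either direction. This type held 198667 and 636950 UMIs, so the minimum of 20 was reached mainly through the library labelled HKO. *Gbp6* had 5 and 29 UMIs, *Trim30a* 2 and 18 and *Xaf1* 7 and 35, and their intervals held 1. The interval of *Ifitm3* (11 and 20 UMIs) also held 1. Hepatocyte markers differed between the libraries in this type, as given above. T cell nuclei had 14 members with enough UMIs, with a median of 0.29 against -0.10. Of these, 3 were higher (*Gbp7*, *Irf9* and *Iigp1*), beside 10.4% of 2806 genes, and 1 lower (*Irf1*), beside 16.9%. The intervals of *Gbp7* (0.903 to 2.66) and *Irf9* (0.776 to 6.82) held 1. B cell nuclei had 2 members with enough UMIs and 0 past 1.5-fold, beside 12.2% and 18.6% of 1116 genes higher and lower. *Oasl2*, an oligoadenylate synthetase-like gene, was the cholangiocyte member whose interval left out 1, at 40.3 and 92.6 CPM from 8 and 59 UMIs (2.30, 1.09 to 5.57). In T cell nuclei *Iigp1* stood at 64.0 and 169 CPM and *Irf1* at 320 and 155 CPM, from 8 and 23 and from 40 and 21 UMIs.

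Shared direction over hepatocyte, endothelial, HSC and macrophage nuclei was no more common than among all genes. Of 30 with enough UMIs in all 4, 2 were higher in the library labelled HKO in each type (*Rsad2* and *Iigp1*), beside 13.5% of 7963 genes, and 6 were lower in each (*Ifitm3*, *Irf7*, *Irf1*, *Dhx58*, *Ddx58* and *Xaf1*), beside 19.4%. The remaining 22 differed in direction between types. TMM factors moved the median of all genes by 0.05 in endothelial and HSC nuclei and by 0.10 in macrophages on the log2 scale. When totals were scaled by them, *Ddx58* and *Xaf1* left the 6. Of all 7963 genes, 1428 were then higher in each type and 1230 lower, against 1075 and 1541 without these factors. *Irf7* was the 1 member at least 1.5 times lower in all 4 types, beside 0.766% of all genes, and 0 were as much higher, beside 0.251%. Of 35 members with at least 20 UMIs in at least 2 types, 7 had an interval above 1 in a type and below 1 in another, beside 8.97% of 11730 genes.

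**Figure D1:**
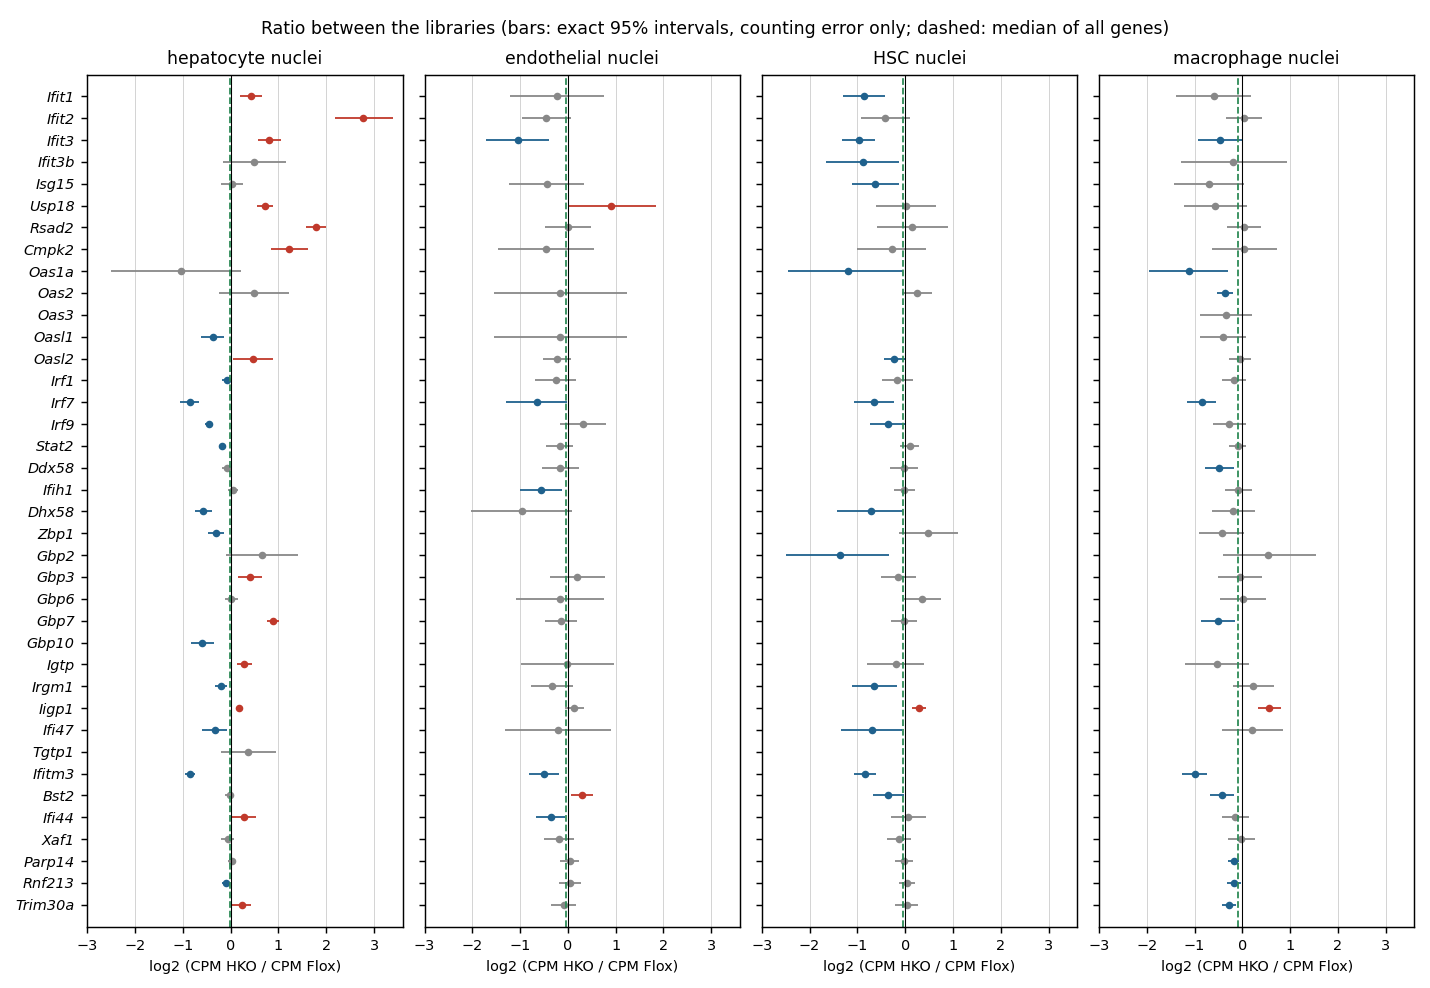
Log2 ratio of CPM between the libraries (HKO over Flox) for members with at least 20 UMIs in each of 4 types, with exact 95% intervals for counting error. Red and blue mark intervals wholly above and below 0, 13 and 12 of 37 genes in hepatocytes (beside 31.3% and 31.6% of all genes) and 1 and 14 of 34 in HSC (beside 8.77% and 14% of all genes), and the dashed line is the median of all genes.

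Among the IFIT genes, whose products bind foreign RNA and stop its translation, *Ifit1* and *Ifit3* were higher in hepatocytes and lower in HSC of the library labelled HKO when all nuclei were summed. *Ifit1* stood at 7.62 and 10.2 CPM in hepatocyte nuclei (ratio 1.34, 1.14 to 1.57) and at 80.6 and 44.5 CPM in HSC nuclei (0.553, 0.408 to 0.744). *Ifit3* stood at 5.62 and 9.86 CPM in hepatocytes (1.75, 1.48 to 2.09), with ratios of 0.509 (0.400 to 0.645) in HSC, 0.487 (0.306 to 0.763) in endothelial and 0.724 (0.527 to 0.999) in macrophage nuclei. The gene was thus higher in hepatocytes of the library labelled HKO and lower in these 3 types. *Ifit3b*, its near copy, had 45 and 38 UMIs in hepatocytes, where the interval held 1, and 27.3 and 14.8 CPM in HSC. The hepatocyte difference of *Ifit1* and *Ifit3* lay in few nuclei, as described below. *Ifit2* had the highest hepatocyte ratio of all members, from 30 and 122 UMIs (0.646 and 4.39 CPM; 6.80, 4.53 to 10.5), and its ratio was 3.65 with the doublets kept. In endothelial nuclei *Ifit2* stood at 73.1 and 53.5 CPM and in macrophage nuclei at 79.0 and 80.5 CPM.

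The ISG15 system attaches a ubiquitin-like tag to proteins, and *Usp18* takes it off again and damps the type I receptor. *Isg15* itself differed little in hepatocytes at 9.39 and 9.57 CPM (1.02, 0.872 to 1.19), and stood at 56.7 and 36.8 CPM in HSC (0.649, 0.460 to 0.913), 31.9 and 23.4 CPM in endothelial and 26.9 and 16.5 CPM in macrophage nuclei. *Usp18* was higher in the library labelled HKO in hepatocytes at 12.8 and 20.9 CPM (1.64, 1.46 to 1.84) and in endothelial nuclei at 16.5 and 30.9 CPM from 16 and 37 UMIs (1.88, 1.02 to 3.61). Macrophage nuclei held *Usp18* at 31.8 and 21.3 CPM. *Rsad2*, which encodes viperin, an enzyme that makes a chain-terminating nucleotide, stood at 6.01 and 20.6 CPM in hepatocytes (3.43, 2.97 to 3.97). Elsewhere it was close to level, at 70.0 and 70.2 CPM in endothelial, 19.8 and 22.0 CPM in HSC and 85.5 and 87.3 CPM in macrophage nuclei. *Cmpk2*, a nucleotide kinase that supplies the viperin reaction, stood at 2.05 and 4.79 CPM in hepatocytes (2.34, 1.78 to 3.08) and at 25.3 and 25.7 CPM in macrophages.

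Oligoadenylate synthetases turn double-stranded RNA into a signal for RNase L, and their relatives OASL1 and OASL2 act on translation and sensing. *Oas1a* was lower in the library labelled HKO in HSC at 13.7 and 5.94 CPM and in macrophages at 25.3 and 11.6 CPM (0.461, 0.259 to 0.812), from 31 and 24 UMIs in the latter. *Oas2* was lower in macrophages (0.776, 0.690 to 0.874) and stood at a ratio of 1.18 in HSC (0.957 to 1.47). *Oasl1*, which restrains translation of *Irf7*, stood at 9.93 and 7.63 CPM in hepatocytes (0.768, 0.650 to 0.906) and at 54.6 and 41.2 CPM in macrophages. *Oasl2* stood at 189 and 162 CPM in endothelial, 244 and 208 CPM in HSC and 225 and 217 CPM in macrophage nuclei.

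Of the transcription factors, *Irf7*, which amplifies type I interferon production, was lower in the library labelled HKO wherever it was well counted. It stood at 17.6 and 9.72 CPM in hepatocyte nuclei (0.553, 0.480 to 0.635), 162 and 89.7 CPM in macrophages (0.554, 0.451 to 0.680), 76.5 and 48.7 CPM in HSC (0.637, 0.473 to 0.854) and 52.5 and 33.4 CPM in endothelial nuclei (0.637, 0.410 to 0.982). *Irf9* was lower in hepatocytes (0.732, 0.693 to 0.773) and in HSC at 93.6 and 72.5 CPM (0.774, 0.602 to 0.995), and stood at 64.8 and 80.2 CPM in endothelial nuclei, where the interval held 1. *Stat2* was slightly lower in hepatocytes (0.877, 0.853 to 0.902) and stood at 336 and 313 CPM in macrophages and 278 and 296 CPM in HSC. *Irf1*, the early factor of the IFNγ response, differed little, with ratios of 0.837 to 0.941 in the 4 types.

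The cytosolic sensors varied by type. *Dhx58* encodes LGP2, which tunes the RNA sensors RIG-I and MDA5, and it stood at 21.1 and 14.2 CPM in hepatocytes (0.673, 0.597 to 0.757) and 31.4 and 19.0 CPM in HSC (0.605, 0.373 to 0.970). *Ifih1*, which encodes MDA5, was near level in hepatocytes (1.03), HSC (0.989) and macrophages (0.942), and lower in endothelial nuclei at 101 and 68.5 CPM (0.679, 0.50 to 0.920). *Ddx58*, which encodes RIG-I, was lower in macrophages at 134 and 96.0 CPM (0.715, 0.578 to 0.884). *Zbp1*, a sensor of Z-form nucleic acid that can start necroptosis, stood at 18.3 and 14.8 CPM in hepatocytes (0.807, 0.716 to 0.909) and 26.0 and 36.2 CPM in HSC, where the interval held 1.

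GBP and IRG GTPases, many of them targets of IFNγ, differed in direction among themselves. *Gbp7* was higher in the library labelled HKO in hepatocytes at 20.4 and 37.7 CPM (1.85, 1.69 to 2.02) and lower in macrophages at 106 and 74.2 CPM (0.701, 0.551 to 0.892). *Iigp1* was higher in the library labelled HKO, at 160 and 236 CPM in macrophages (1.47, 1.25 to 1.75), 415 and 506 CPM in HSC (1.22, 1.10 to 1.35) and with a ratio of 1.14 (1.10 to 1.17) in hepatocytes, and its endothelial ratio of 1.09 had an interval that held 1. Against these, *Gbp10* was lower in hepatocytes (0.663, 0.559 to 0.784). *Irgm1*, a regulator of the other GTPases, was lower in HSC at 62.2 and 39.8 CPM and stood at 57.8 and 67.9 CPM in macrophages. *Ifi47* stood at 35.5 and 22.0 CPM in HSC and 26.9 and 31 CPM in macrophages, and *Gbp6* at 66.3 and 84.9 CPM in HSC. *Gbp3* and *Igtp* were higher in hepatocytes, at 6.5 and 8.64 CPM and 18.7 and 22.7 CPM, with intervals above 1. *Gbp2* was under 20 CPM and *Tgtp1* under 2 CPM in these 4 types.

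*Ifitm3*, a membrane protein that blocks fusion of virus in endosomes, was lower in the library labelled HKO in every one of the 4 types. It stood at 67.4 and 37.2 CPM in hepatocytes (0.552, 0.514 to 0.593), 213 and 106 CPM in macrophages (0.50, 0.416 to 0.600), 270 and 151 CPM in HSC (0.561, 0.478 to 0.659) and 188 and 133 CPM in endothelial nuclei (0.705, 0.567 to 0.877). *Bst2* was level in hepatocytes and higher in endothelial nuclei (1.23, 1.04 to 1.45). It was lower in HSC (0.784, 0.623 to 0.986) and in macrophages at 186 and 138 CPM (0.744, 0.623 to 0.890). Of the other 5 genes, *Rnf213* and *Parp14* stayed between 0.881 and 1.03 in ratio over the 4 types, and *Xaf1*, a gene linked to cell death, between 0.878 and 0.984. *Ifi44* was higher in hepatocytes at 6.61 and 8.06 CPM and lower in endothelial nuclei at 194 and 150 CPM, and *Trim30a*, a member of the tripartite motif family, was higher in hepatocytes at 11.2 and 13.1 CPM and lower in macrophages at 521 and 427 CPM.

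Over hepatocyte nuclei the members were spread very unevenly. To compare nuclei at equal depth, each was thinned to 1000 UMIs, which left out 39 and 127 shallower nuclei and kept 5880 in the Flox-labelled library and 4508 in the HKO-labelled one. A nucleus then held 1.36 and 1.33 member UMIs on average, with variances of 3.93 and 5.33. No member UMI was seen in 32.1% and 33.2% of nuclei, and at most 2 in 84.4% and 86.1%. The highest nuclei held 70 and 87, and the most members seen in any nucleus were 18 and 24.

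**Figure D2:**
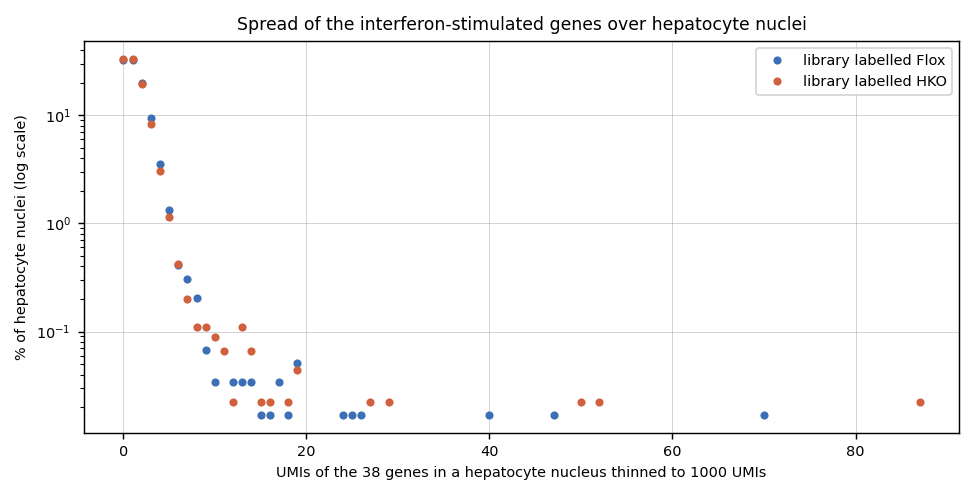
Share of hepatocyte nuclei (logarithmic vertical axis, %) by the number of UMIs of the 38 genes in a nucleus thinned to 1000 UMIs (horizontal axis), 1 point per number and library. Both libraries fall steeply from 0 to about 10 UMIs and then trail out to 70 and 87 UMIs in their highest nuclei.

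The 1% of hepatocyte nuclei with most member UMIs, 59 in the Flox-labelled library and 46 in the HKO-labelled one, held 9.33% and 11.3% of all member UMIs. They were picked by those UMIs, so a share above 1% is set in part by the ranking itself. The least in them was 6 member UMIs, which 24 and 19 nuclei had, and 79 and 52 nuclei just outside had 5. These nuclei were shallower than the others in the Flox-labelled library and deeper in the HKO-labelled one. Their median totals were 6555 and 6220 UMIs, against 7445 and 5805 in the others. At least 3 members were seen in 11.2% (10.4% to 12.0%) and 10.2% (9.38% to 11.2%) of thinned nuclei, and at least 10 members in 13 and 10 nuclei. Without thinning the share with 3 members or more was 87.6% and 77.7%, at median depths of 7423 and 5721 UMIs.

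Endothelial, HSC and macrophage nuclei were more even at equal depth. With nuclei thinned to 500 UMIs, the squared coefficient of variation of member UMIs beyond counting error was 1.38 and 2.01 in hepatocytes, 0.776 and 0.581 in endothelial, 0.415 and 0.760 in HSC and 0.394 and 0.742 in macrophage nuclei. Of these 4 types hepatocytes had the highest value in both libraries. At 1000 UMIs at least 3 members were seen in 74.5% and 61.3% of macrophage nuclei, 58.7% and 51.5% of HSC nuclei and 47.3% and 43.8% of endothelial nuclei. In cholangiocyte nuclei the share was 11.8% and 11.3%, close to that in hepatocytes. These shares rise with the summed level of the members, lowest here in hepatocyte and cholangiocyte nuclei, and do not measure evenness.

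Which members were gathered in these nuclei was read from each gene's share in the 1% of nuclei with most UMIs of the other members, so that no gene took part in its own ranking. *Rsad2* had 83.9% of its hepatocyte UMIs in these nuclei in the Flox-labelled library and 90.8% in the HKO-labelled one. *Cmpk2* had 64.2% and 78.0%, *Ifit3* 50.6% and 72.5%, *Ifit1* 37.6% and 70.5%, *Isg15* 28.7% and 40.2% and *Oasl2* 27.2% and 39.5%. *Tgtp1* had 68.9% and 57.4% of 61 and 47 UMIs. *Ifit2* had 51.7% and 41.7% of 29 and 115 UMIs, and *Ifit3b* 55.6% and 80.0% of 45 and 35. *Rsad2* had the highest share of all members in both libraries.

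The other end of the order was mixed and held the signalling factors *Irf9* and *Stat2* beside the membrane proteins *Ifitm3* and *Bst2*. *Irf9* had 1.37% and 2.09% of its UMIs in these nuclei, *Stat2* 1.59% and 2.26%, *Ifitm3* 1.57% and 2.79%, and *Bst2* 2.09% and 4.76%. *Iigp1*, at 9.17% and 8.33%, *Usp18*, at 6.93% and 8.82%, and the factor *Irf7*, at 5.64% and 8.92%, lay between. Of 32 members with at least 50 UMIs, 16 and 17 had at least 10% of their UMIs in these nuclei, against 0.264% of 12502 and 0.127% of 11795 other genes. The median share was 10.9% and 14.0% for the members and 0.827% and 0.982% for other genes.

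**Figure D3:**
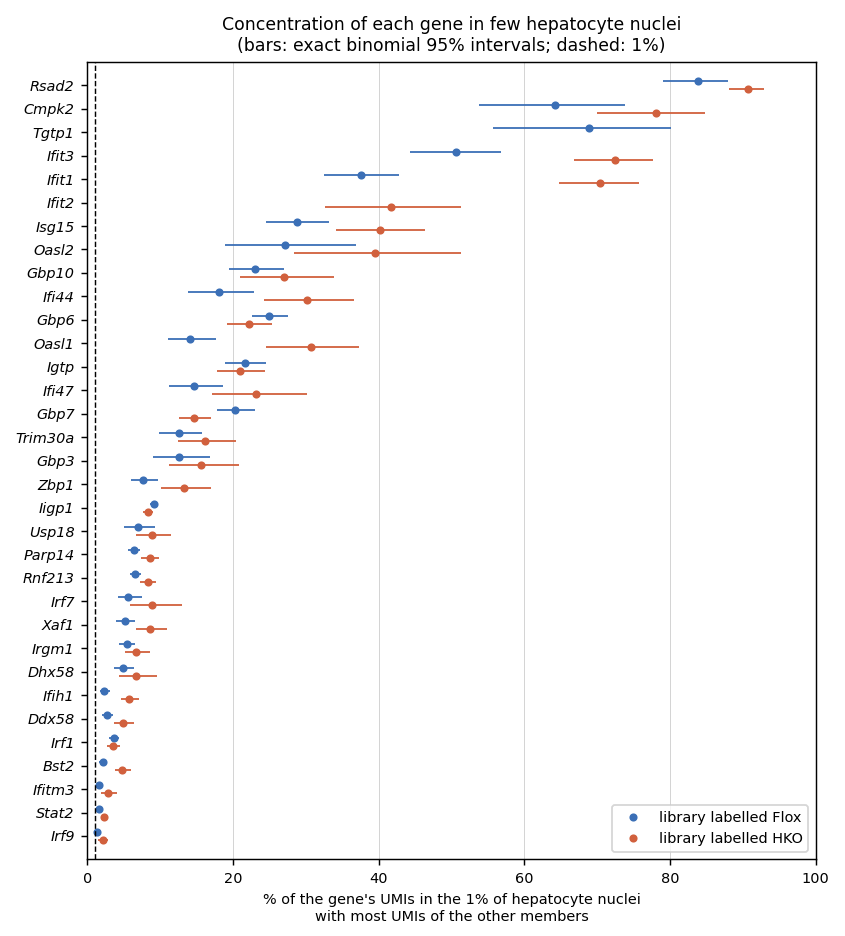
Share of each gene's hepatocyte UMIs (%) in the 1% of nuclei with most UMIs of the other members, with 1 point per library and exact binomial 95% intervals, for members with at least 50 UMIs. The dashed line at 1% is an even spread, and values run from 1.37% for *Irf9* to 90.8% for *Rsad2*.

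For *Rsad2* this came down to a handful of nuclei. It was seen in 56 Flox-labelled and 57 HKO-labelled hepatocyte nuclei (0.952% and 1.26%), and the highest of them held 58 and 176 UMIs. The 5 nuclei with most *Rsad2* held 59.1% and 70.7% of it. *Ifit1* was seen in 210 and 84 nuclei, with up to 26 and 89 UMIs in a nucleus, and *Cmpk2* in 45 and 40, with up to 14 and 55. *Gbp7* was seen far more widely, in 646 and 727 nuclei, *Usp18* in 518 and 482, and *Ifitm3* in 2170 and 812.

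At equal depth of 1000 UMIs the share of nuclei with a UMI separated these cases. *Rsad2* was seen in 0.255% and 0.510% of thinned nuclei, *Ifit1* in 0.680% and 0.399%, and *Ifit2* in 0.0850% and 0.399%. *Gbp7* was seen in 1.80% and 3.39% and *Usp18* in 1.31% and 2.37%, and *Ifitm3* in 6.46% and 4.13%. For *Ifit1* the library labelled HKO had a lower share of positive nuclei at a higher CPM, from 40 and 18 positive nuclei. The intervals of these shares, 0.486% to 0.925% and 0.237% to 0.630%, overlapped. For *Gbp7*, *Usp18* and *Ifitm3* the share of nuclei moved with the CPM.

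Leaving out the 1% of nuclei with most UMIs of the other members changed the hepatocyte ratios of some of the gathered genes. *Ifit1* went from 1.34 to 0.644 (0.495 to 0.830), which is the direction it had in HSC, and *Ifit3* from 1.75 to 0.986 (0.733 to 1.32). *Rsad2* went from 3.43 to 1.97 (1.30 to 3.0) and *Cmpk2* from 2.34 to 1.48 (0.873 to 2.49). Other gathered genes moved less, with *Oasl2* going from 1.39 to 1.24, *Gbp10* from 0.663 to 0.630 and *Gbp6* from 1.01 to 1.05, and *Tgtp1* went from 1.29 to 1.76 from few UMIs. Genes spread over more nuclei kept theirs, with *Gbp7* at 1.99, *Usp18* at 1.61, *Ifitm3* at 0.55 and *Irf7* at 0.53. *Ifit2*, gathered in part, stood at 8.26 (4.70 to 15.5).

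**Figure D4:**
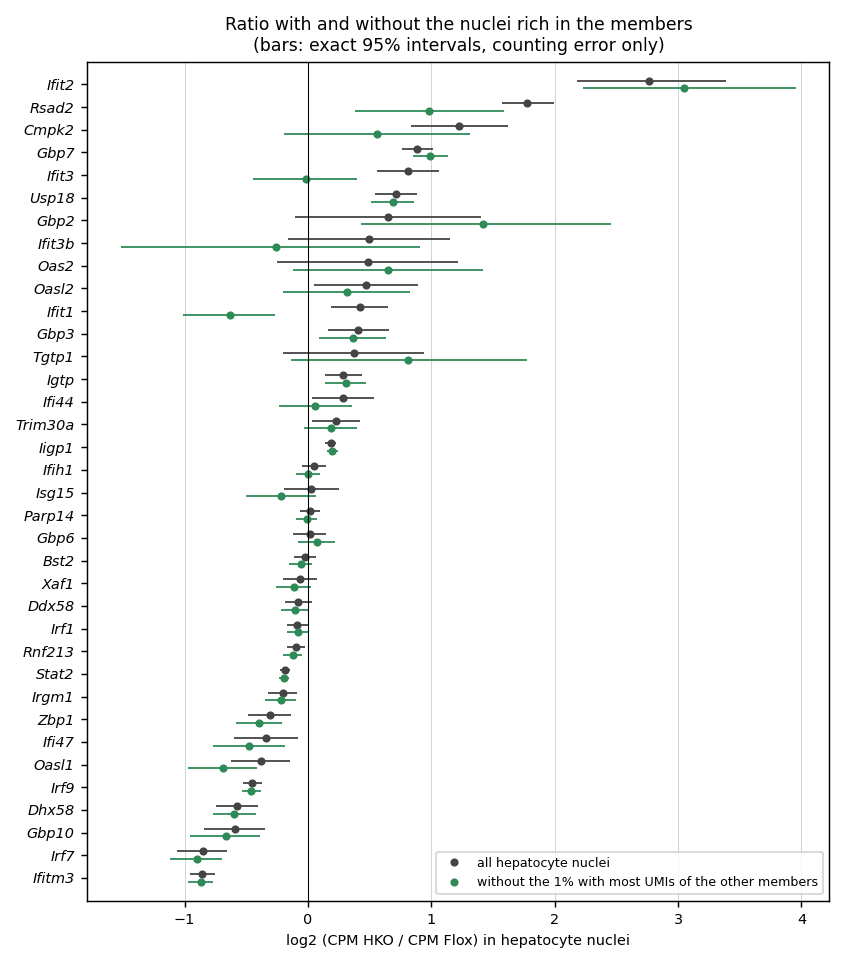
Log2 ratio of hepatocyte CPM between the libraries (HKO over Flox) per gene over all hepatocyte nuclei and without the 1% with most UMIs of the other members, with exact 95% intervals for counting error. *Ifit1* crosses from above 0 to below it and *Ifit3* comes to about 0, while *Gbp7*, *Usp18*, *Irf7* and *Ifitm3* stay in place.

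The nuclei richest in the antiviral and in the GTPase genes overlapped in part. Nuclei were ranked once by 8 genes (the IFIT genes, *Isg15*, *Usp18*, *Rsad2* and *Cmpk2*) and once by the 10 GBP and IRG genes. The top 1% of both rankings shared 11 of 59 nuclei in the Flox-labelled library (18.6% of each) and 12 of 46 in the HKO-labelled one (26.1%). The top nuclei of the GTPase genes held 28.9% and 42.8% of the thinned UMIs of the first group, and those of the first group held 5.85% and 7.03% of the UMIs of the GTPase genes, where an even spread would give 1%.

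Genes outside the list were also higher in the nuclei rich in members. In the library labelled Flox the highest ratios to other hepatocyte nuclei were those of the chemokine genes *Cxcl9*, at 266 against 1.11 CPM, and *Cxcl10*, at 564 against 4.06 CPM, which draw T cells. Of the further genes chosen by the same rule, the library labelled Flox had *Samhd1*, *Herc6*, *Ddx60*, *Irgm2*, *Ly6e*, *Gm20559* and *Trim30d*. In the library labelled HKO *Cxcl10* stood at 936 against 8.17 CPM and *Herc6*, an ISG15 ligase, at 725 against 44.4 CPM, and further genes were *Ddx60*, *Gm20559*, *Samhd1*, *Irgm2*, *Trim30d*, *Trim12a* and *Eif2ak2*. The *Cxcl9* reads of the library labelled Flox came from 6 of these nuclei, and the nuclei labelled HKO had 1 such UMI. *Cd274*, which encodes PD-L1 and was picked after its values were seen, stood at 96.2 against 2.39 CPM and at 87.9 against 3.94 CPM. *Themis* was close to level, at 177 against 162 CPM (1.09, 0.852 to 1.38) and 278 against 246 CPM (1.13, 0.893 to 1.41).

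Markers of some other cell types were higher in the same nuclei. Summed endothelial markers, with 10 and 8 of 11 detected, stood at 4.76 and 3.71 times their level in other hepatocyte nuclei (77 and 36 UMIs), and HSC markers, with 8 and 5 of 10, at 3.92 and 1.04 times. Macrophage markers, with 7 and 9 of 13 detected, stood at 1.56 and 2.95 times. T cell markers had 0 and 10 UMIs, and in the library labelled HKO they stood at 10.0 times (4.67 to 19.3) with 8 of 10 genes detected. Neutrophil markers stood at 6.38 times from 4 UMIs in the library labelled Flox and had 0 UMIs in the other. Conventional dendritic cell markers stood at 0.962 and 2.82 times, from 4 and 6 UMIs. Cholangiocyte markers stood at 0.751 and 0.851 times, and B cell and plasmacytoid dendritic cell markers had 0 UMIs in both libraries. Hepatocyte markers stood at 0.864 and 0.832 times, with all 9 detected, and markers of the periportal and the pericentral zone at 0.806 and 0.614 and at 0.822 and 0.912 times. No UMI of the endothelial, HSC, macrophage and T cell markers was present in 42 of the 59 and 28 of the 46 nuclei. Among all hepatocyte nuclei free of those markers (67.2% and 62.5% of them), the top 1% held 10.5% of member UMIs in the library labelled Flox, the *Ifit1* ratio was 0.976 (0.788 to 1.21) and that of *Rsad2* 1.74 (1.45 to 2.09). The part of other cells' RNA in the remaining excess was not tested.

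Upstream genes of the pathway were examined from a list of 53 in the tables, of which the ones named here were picked after their values were seen. None of the 7 interferon genes had 20 UMIs in a type, and *Ifng* had 3 and 1 UMIs in T cell nuclei. Of the 6 receptor genes 5 had enough UMIs in each of the 4 types. *Ifngr1*, the ligand-binding chain of the IFNγ receptor, was higher in the library labelled HKO in hepatocytes at 14.0 and 24.5 CPM (1.75, 1.57 to 1.95) and in endothelial nuclei at 55.6 and 84.4 CPM (1.52, 1.08 to 2.15), and lower in macrophages at 422 and 324 CPM (0.767, 0.683 to 0.862). *Il10rb*, a chain of the type III receptor, was higher in hepatocytes at 3.42 and 7.67 CPM, and *Ifnar1* was level there at 58.5 and 60.3 CPM.

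Of the 7 signalling genes and inhibitors, all with enough UMIs in the 4 types, *Socs3*, an inhibitor of JAK kinases, was at least 1.5 times lower in each. It stood at 28.3 and 10.8 CPM in hepatocytes (0.381, 0.335 to 0.432), 36.0 and 10.9 CPM in endothelial, 23.2 and 9.50 CPM in HSC and 13.8 and 5.82 CPM in macrophage nuclei. Of 8 sensing genes with enough UMIs in hepatocytes 2 were at least 1.5 times higher (*Tlr7* and *Samhd1*) and 1 lower, *Irf3*, a factor that nucleic acid sensors activate, at 137 and 90.1 CPM (0.655, 0.625 to 0.686). *Tlr7* had 12 and 13 UMIs, and its interval held 1. Of 20 other induced genes there, 4 were higher (*Gbp8*, *Gbp9*, *Ifi27l2a* and *Cxcl10*) and 1 lower (*Cxcl9*), and the interval of *Ifi27l2a* held 1. In HSC 1 of 21 was higher and 4 were lower (*Ifi35*, *B2m*, *H2-D1* and *Cxcl10*), and in macrophages 1 of 22 was higher (*Cxcl9*) and 5 lower, against the shares of all genes given above for these types. *H2-D1*, a class I antigen-presenting gene, stood at 964 and 435 CPM in HSC and 941 and 603 CPM in macrophages.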

How the data were processed

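Liver nuclei of 2 libraries (Flox and HKO, 1 each, grouped by genotype label) were profiled by 10x 3′ snRNA-seq. The authors deposited raw UMI counts per gene and barcode with no normalization. The submitters' processing notes name Cell Ranger 8.0.1 and GRCm38, and the study's methods state that intronic reads were not counted, so intron reads of unspliced RNA are missing from these values. The median barcode held 6216 UMIs for Flox and 2227.5 for HKO. Counting error limits precision accordingly.

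Barcodes with at least 300 genes were kept (3 and 27 had fewer), and the highest-scoring 701 and 920 doublets by Scrublet in scanpy 1.11.5 (0.8% per 1000 barcodes) were removed. A nucleus was typed by marker UMIs (at least 2 UMIs from at least 2 genes), which left 238 and 298 mixed and 119 and 474 untyped. Counts were summed per type and divided by all UMIs (CPM). Log2 ratios used a pseudocount of 1 CPM and genes with at least 20 UMIs over both libraries. A 1.5-fold ratio stood for a call, since no test was possible. Intervals were exact Poisson, conditional binomial or Clopper-Pearson at 95% (SciPy 1.17.1). Thinning drew UMIs without replacement with a fixed seed. Ratios and concentration were tested on simulated data.

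Per type, values are given for members with at least 50 UMIs: at most the 6 highest and 6 lowest by ratio and the 5 with most CPM, besides members with opposite intervals in a pair of types and the 10 other genes highest in the top nuclei. Further members are described by their levels, and those details were chosen after values were seen. The members and lists were chosen with earlier results of these data known. Alternatives were clusters, at least 4 marker UMIs, doublets kept, 500 genes, edgeR 4.0.16 TMM factors, other minimums, folds, pseudocounts and thinning depths. A gene that this rule also names is not reported here.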

Additional observations from a re-analysis of the deposited data

Results flagged for a closer look

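In 7 members the interval of the ratio between the libraries (HKO over Flox) lay above 1 in at least 1 type and below 1 in another. With 1 library per genotype the difference between types was not tested, and these genes were picked by that pattern out of 35 with at least 20 UMIs in at least 2 types (20%), beside 8.97% of all 11730 such genes.

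*Ifit3* differed most, at a ratio of 1.75 in hepatocyte and 0.487 in endothelial nuclei, 3.6 times apart. *Ifit1* stood at 1.34 in hepatocyte and 0.553 in HSC nuclei, 2.42 times apart. For both genes the hepatocyte side rested on the 1% of nuclei richest in members, and it was 0.986 and 0.644 without them. *Oasl2* stood at 2.30 in cholangiocyte nuclei, from 8 and 59 UMIs, and 0.855 in HSC nuclei, 2.69 times apart.

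*Gbp7* stood at 1.85 in hepatocyte and 0.701 in macrophage nuclei, 2.64 times apart, and its macrophage ratio was 0.899 in clusters. *Bst2* stood at 1.23 in endothelial and 0.744 in macrophage nuclei, 1.65 times apart. *Ifi44* stood at 1.22 in hepatocyte and 0.777 in endothelial nuclei, 1.57 times apart, and *Trim30a* at 1.17 in hepatocyte and 0.820 in macrophage nuclei, 1.43 times apart. Hepatocyte ratios without the 1% of nuclei richest in the other members were 1.04 (0.849 to 1.28) for *Ifi44* and 1.14 (0.979 to 1.31) for *Trim30a*. Both intervals then held 1.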

How the results depend on the processing

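No paired analysis was possible because there was 1 library per genotype, and for the same reason no replicate could be left out. Of 172 alternatives for the 22 summary values, 135 stayed within 1.5 times a count or within the interval of a median or share, and 37 moved. A turn of direction was not scored for these values. No median moved. A minimum of 100 UMIs left 0 members past 1.5-fold in either direction in endothelial, cholangiocyte and T cell nuclei, 6 lower in HSC and 2 lower in macrophages. A fold of 2 left 3 higher and 1 lower in hepatocytes, 0 higher and 1 lower in endothelial nuclei, 2 lower in HSC, 2 lower in macrophages, and 2 higher and 0 lower in cholangiocytes. Clusters in place of marker UMIs gave 8 lower in endothelial nuclei, 1 higher and 8 lower in macrophages, 2 lower in cholangiocytes and 0 lower in T cells. At least 4 marker UMIs gave 1 higher in macrophages, 1 in T cells and 2 in cholangiocytes. TMM factors gave 2 higher in macrophages and 6 in T cells. Keeping doublets gave 2 lower in hepatocytes and 2 higher in endothelial nuclei. Without the 1% of hepatocyte nuclei richest in members, an alternative chosen after seeing the data for these counts, 7 members were lower there. No share of all genes is given beside these alternative counts, so they have no background. Whether the share of lower members exceeded that of all genes in HSC only under cluster typing was not tested.

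The share of member UMIs in the top 1% of hepatocyte nuclei in the library labelled Flox was 8.44% at 2000 UMIs and 10.5% in nuclei free of other types' markers, a set chosen after seeing the data. The share of nuclei with at least 3 members was 35.7% and 31.5% at 2000 UMIs and 7.13% and 6.48% without *Rnf213*, *Parp14* and *Irf1*, and 32.0% and 30.8% had at least 2 members.

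Of 467 alternatives for 82 named ratios, 446 stayed within the interval, 16 moved and 5 turned direction. *Ifit1* in hepatocytes went to 0.644 without the 1% of nuclei richest in members, by either ranking, and to 0.976 in nuclei free of other types' markers, and *Ifit3* went to 0.986 by either ranking. Depth limits the small types most: B cell medians were not run, and at 100 UMIs no median is given for types with fewer than 2 members left.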
